A study of Mus musculus with 14 samples.

Results

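Interleukin-10 is a secreted cytokine that restrains macrophages, and the 6 genes described here are its coding gene, its receptor and a set of repressors that it is known to induce. They were taken by symbol, and their Ensembl identifiers were matched among the 47937 genes of the deposited counts table. Il10 encodes the ligand, Il10ra and Il10rb encode the chains of its receptor, and Sbno2, Nfil3 and Etv3 encode transcriptional regulators. All 6 were found once in the table, and all 6 passed the filter on low counts that left 13061 genes for testing.

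IL-10 binds the IL-10R alpha chain, encoded by Il10ra, which carries JAK1, and the complex is completed by the IL-10R beta chain, encoded by Il10rb, which carries TYK2 and is shared with receptors of other IL-10 family cytokines. The kinases activate STAT3, and STAT3 in macrophages turns on genes whose products dampen inflammatory transcription. Sbno2 is a co-repressor linked to NF-kB, Nfil3 is a basic leucine zipper repressor that acts on Il12b, and Etv3 is an ETS-family repressor. Macrophages make Il10 mRNA late in an inflammatory response, under control of p38 kinase, CREB-type factors, MAF and AU-rich elements in the mRNA.

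The data were poly(A) RNA sequencing counts from wild-type mouse macrophages grown from bone marrow. The groups were 3 libraries from macrophages exposed for 3.5 h to mast cell trap supernatant, 5 exposed for 3.5 h to mast cell supernatant, and 6 untreated. The labels spell the first treatment out as mast cell intracellular trap supernatant, and the study's title concerns how mast cells that have trapped neutrophils pass on an inflammatory signal. The labels place the libraries in 3 batches, with 1 trap library in each. Mast cell supernatant libraries numbered 2, 1 and 2 in batches 1, 2 and 3, and each batch held 2 untreated libraries. The labels give every library as wild type, and they name no carrier control for the supernatants. They do not say that libraries came from separate animals or cultures, so p-values measure only the spread between these libraries, which may be technical.

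Total counts ranged over 12414738 to 16491536 in trap libraries, 11729073 to 16123421 in mast cell supernatant libraries and 13455686 to 22720419 in untreated libraries. Levels are given as CPM, a gene's counts scaled to a common library size with the trimmed mean of M-values (TMM). The 10 listed macrophage markers summed to 9165 to 19346 CPM in trap libraries, 9134 to 20560 CPM in mast cell supernatant libraries and 9299 to 18994 CPM in untreated libraries. This range followed Lyz2, the macrophage lysozyme gene. Lyz2 had 1 to 2 counts in all 5 batch 3 libraries, of every group, against 9983 to 10886 CPM in batch 1 and 4720 to 5205 CPM in batch 2. The other 9 markers summed to 8694 to 9675 CPM in batch 1, 7063 to 7614 CPM in batch 2 and 9134 to 10125 CPM in batch 3. Batch 3 thus stands apart in a defining macrophage transcript that its labels do not account for, so results are also given without it. Mertk, an engulfment receptor, fell with trap (-0.83 ± 0.17 on the log2 scale, SE, adjusted p = 0.0328) and with mast cell supernatant (-0.90 ± 0.15, adjusted p = 0.00422). Cd14, a co-receptor for bacterial lipopolysaccharide, had 0.42 ± 0.11 with trap (SE, adjusted p = 0.0974) and rose with mast cell supernatant (0.39 ± 0.10, adjusted p = 0.0412). Without batch 3 the Mertk calls were lost (adjusted p = 0.197 for trap and 0.0966 for mast cell supernatant), and Cd14 passed with both supernatants.

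The 12 listed mast cell markers summed to 87.3 to 2051 CPM in trap libraries, 84.8 to 1429 CPM in mast cell supernatant libraries and 7.11 to 9.36 CPM in untreated libraries. Of these, Mcpt4, Tpsb2 and Mrgprb2 were at 0 in every untreated library. The 11 neutrophil markers summed to 78.4 to 299 CPM in trap libraries, with Ly6g at 0, to 74.0 to 311 CPM in mast cell supernatant libraries and to 93.0 to 327 CPM in untreated libraries. The 10 B and T cell markers summed to at most 2.35 CPM in trap libraries with 6 at 0, 3.50 CPM in mast cell supernatant libraries with Cd8a at 0, and 3.49 CPM in untreated libraries with Cd3d at 0. In bulk RNA, fewer cells of a type and less RNA per cell cannot be told apart.

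RefSeq promoter sequences of GRCm38.p6 matched 3 of the 6 genes, the repressors Sbno2, Nfil3 and Etv3, with 5 start sites, and Il10, Il10ra and Il10rb are named only. Those with a match to a STAT or CREB-type motif are shown, since IL-10 signals through STAT3 and CREB-type factors act in the same cells. Each sequence is the 250 bases before a start site, on the gene's own strand, with the matched motif in capitals. Both Sbno2 sequences below carry the STAT motif TTCNNNGAA, where N is any base. They lie at chr10:80102703-80102952 and chr10:80101188-80101437, both on the minus strand, and the motif begins 26 and 24 bases before its start site.
Sbno2, first start site: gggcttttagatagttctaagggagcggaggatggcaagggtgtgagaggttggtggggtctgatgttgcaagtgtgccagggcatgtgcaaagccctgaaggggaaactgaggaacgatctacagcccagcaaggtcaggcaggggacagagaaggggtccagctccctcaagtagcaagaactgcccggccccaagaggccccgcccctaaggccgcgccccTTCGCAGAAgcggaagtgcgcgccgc
Sbno2, second start site: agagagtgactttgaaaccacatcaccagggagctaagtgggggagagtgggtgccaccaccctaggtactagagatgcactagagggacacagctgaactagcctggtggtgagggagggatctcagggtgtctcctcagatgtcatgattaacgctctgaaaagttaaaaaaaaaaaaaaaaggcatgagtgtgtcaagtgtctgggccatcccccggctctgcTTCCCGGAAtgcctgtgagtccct
The motif reads the same on both strands, and 7.02% of 32851 mouse promoter sequences of this length held it. The other Sbno2 sequence, at chr10:80075440-80075689 on the minus strand, held none of the 6 motifs searched.

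Nfil3 and Etv3 had no STAT motif in these windows, but each had 1 copy of TGACG, the half-site of the cAMP response element that CREB-type factors bind. The Nfil3 sequence lies at chr13:52981040-52981289 on the minus strand, with the half-site on the opposite strand, so that it reads CGTCA, at 59 bases before the start site. The Etv3 sequence lies at chr3:87525328-87525577 on the plus strand, with the half-site at 16 bases before the start site.
Nfil3: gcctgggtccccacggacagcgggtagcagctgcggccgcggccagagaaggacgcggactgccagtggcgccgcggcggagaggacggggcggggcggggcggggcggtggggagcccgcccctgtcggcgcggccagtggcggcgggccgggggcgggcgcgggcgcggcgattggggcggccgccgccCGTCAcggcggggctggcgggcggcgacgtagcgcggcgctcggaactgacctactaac
Etv3: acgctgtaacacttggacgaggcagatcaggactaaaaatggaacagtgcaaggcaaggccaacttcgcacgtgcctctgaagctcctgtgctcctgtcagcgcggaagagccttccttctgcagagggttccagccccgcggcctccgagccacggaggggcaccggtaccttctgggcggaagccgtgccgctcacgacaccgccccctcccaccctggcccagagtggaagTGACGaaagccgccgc
TGACG, on either strand, was in 17.8% of the promoter sequences. The full element TGACGTCA, which contains the half-site, was in 1.55% of them and in none of the 5 printed or described here. The other motifs searched on both strands were TGANTCA of AP-1 (6.75% of promoters), TTANGTAA of the NFIL3 family (2.06%) and TGCTGA of MAF (16.1%), and none of these was in the 5 sequences. A match describes the letters alone.

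Il10 was higher after exposure to either supernatant, in every batch. The gene (ENSMUSG00000016529) lies at chr1:131019845-131024974 on the plus strand of GRCm38. Trap libraries of batches 1, 2 and 3 had 15.1, 10.5 and 10.7 CPM. Mast cell supernatant libraries had 12.6 and 15.4 CPM in batch 1, 25.3 CPM in batch 2, and 11.5 and 11.9 CPM in batch 3. Untreated libraries had 1.31 and 2.08 CPM in batch 1, 6.21 and 6.66 CPM in batch 2, and 6.71 and 2.69 CPM in batch 3. All 8 supernatant libraries lay above both untreated libraries of their own batch, which held for 2.39% of the 13061 tested genes. The reads behind these values were few, with 133 to 199 counts in trap, 135 to 442 in mast cell supernatant and 26 to 109 in untreated libraries.

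**Figure D1:**
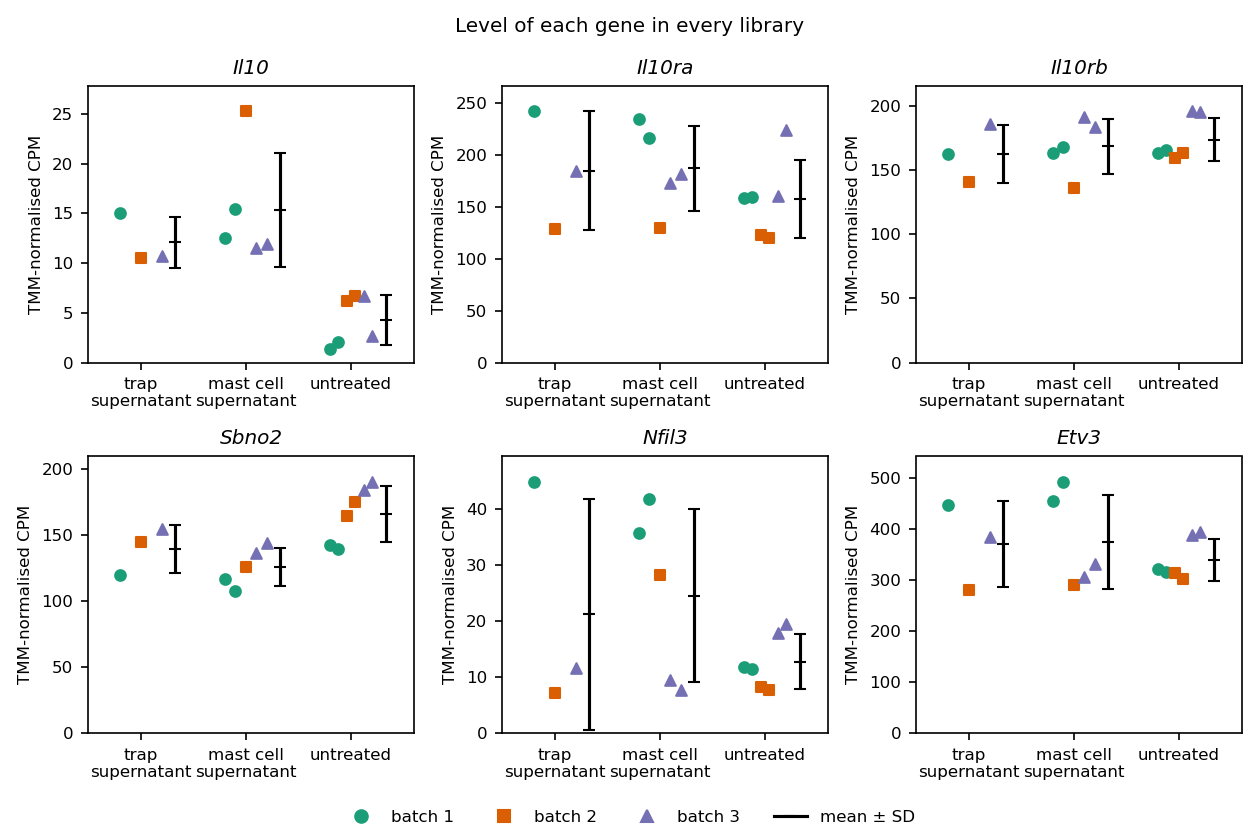
Level of each of the 6 genes in TMM-normalised CPM on an axis from 0, with trap supernatant, mast cell supernatant and untreated libraries from left to right. Each point is 1 library, colours and shapes mark the batch, and bars give the mean and SD. Il10 ran from 10.5 to 25.3 CPM in the supernatant libraries and from 1.31 to 6.71 CPM in the untreated ones.

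Il10 rose with mast cell supernatant, averaging 15.3 ± 5.76 CPM (SD, n = 5), against 4.28 ± 2.51 CPM in untreated cells (SD, n = 6). With batch in the model, the log2 fold change was 1.99 ± 0.36 (SE), a fold of 3.97, with a 95% interval of 1.19 to 2.79 and an adjusted p of 0.0113 by edgeR's quasi-likelihood test. Only 0.567% of the tested genes had a larger log2 change in either direction. In trap supernatant Il10 averaged 12.1 ± 2.57 CPM (SD, n = 3), a log2 fold change of 1.64 ± 0.41 against the same untreated libraries, with an interval of 0.72 to 2.55. That difference missed the threshold, with an adjusted p of 0.0949, although the unadjusted p was 0.00255 and each of the 3 trap libraries exceeded both untreated libraries of its batch. The comparisons of trap and of mast cell supernatant share the untreated libraries and are not independent.

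The Il10 calls changed with the libraries and terms in the fit. When the 9 libraries numbered 1 to 3 alone were fitted, with the number as a replicate block, the mast cell supernatant change was 1.83 with an adjusted p of 0.408. The block equals the batch in those libraries, and 5 libraries are left out. With no batch term the change was 1.86 with an adjusted p of 0.0595, and without batch 2 it was 2.08 with an adjusted p of 0.0734. Without batch 3 it was 2.36 with an adjusted p of 0.0418, and the trap difference was 1.85 with an adjusted p of 0.204. The trap difference passed with DESeq2, at 1.71 and an adjusted p of 0.00831, without untreated replicate 3, at 1.94 and 0.0267, and without trap replicate 2, at 2.07 and 0.046. Over all leave-one-out fits and other settings, its adjusted p ranged up to 0.692.

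The Il10 difference was largest in batch 1. There, where untreated cells had the least Il10, the log2 difference from untreated was 3.14 for the trap library and 3.02 for the mean of the mast cell supernatant libraries. Batch 2 gave 0.70 for the trap library and 1.96 for the mast cell supernatant library. Batch 3 gave 1.32 for the trap library and 1.44 for the mast cell supernatant libraries. All were positive, and the test of whether the difference itself varied by batch gave an unadjusted p of 0.0338 and an adjusted p of 0.218 for Il10. That test passed with no filter on low counts (adjusted p = 5.23e-10), without batch 2 (0.036) and without mast cell supernatant replicate 2 (0.0136). Without batch 3 its adjusted p was 0.311. The fit with no filter used the same 14 libraries, so its smaller p reflects a setting and not added data. In simulated data 7.92% of this test's calls were false.

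**Figure D2:**
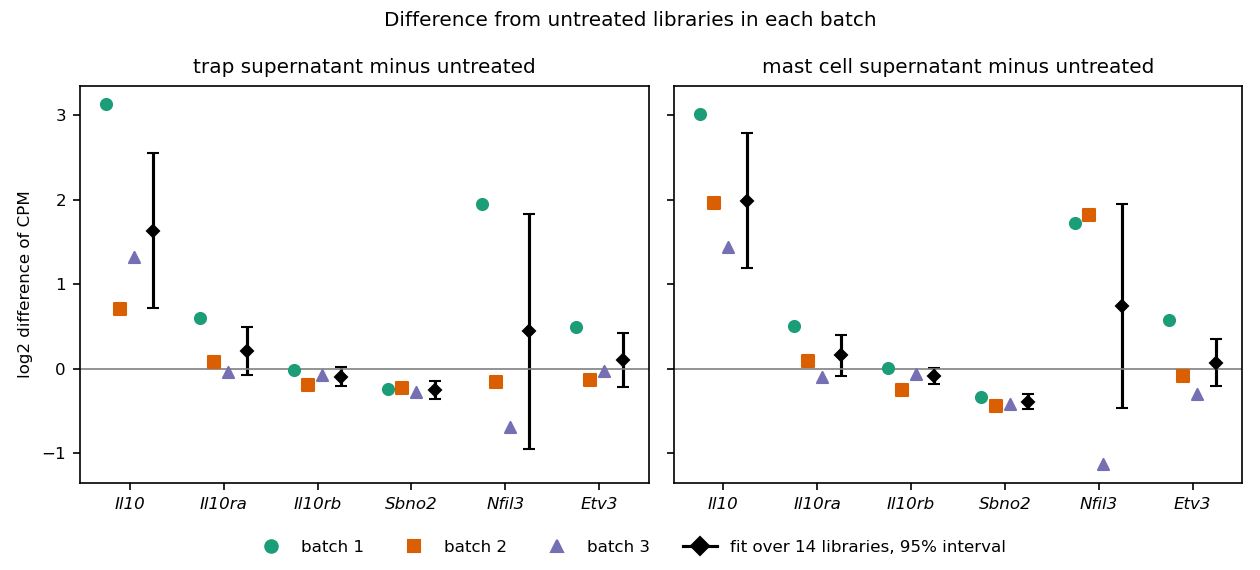
Log2 difference from the untreated libraries of the same batch for each gene, with trap supernatant at left and mast cell supernatant at right. Coloured points are batches, and black diamonds with bars are the edgeR fit over 14 libraries with its 95% interval. Il10 lay above 0 and Sbno2 below 0 in all 3 batches, while Nfil3 and Etv3 lay above 0 in batch 1 and below 0 in batch 3.

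Mast cells can themselves express Il10, so the level of mast cell transcripts is set beside it. In trap libraries of batches 1, 2 and 3 the summed mast cell markers were 87.3, 765 and 2051 CPM. In mast cell supernatant libraries they were 84.8 and 113 CPM in batch 1, 1429 CPM in batch 2, and 294 and 235 CPM in batch 3. The batch 1 libraries, with the lowest marker sums among supernatant libraries, had the largest Il10 differences from untreated, between 2.87 and 3.17 on the log2 scale. The trap library of batch 3, with the highest marker sum, had an Il10 difference of 1.32. The mast cell supernatant library of batch 2 had the highest Il10 level, 25.3 CPM, and the second highest marker sum. The part of mast cell transcripts in the Il10 levels was not tested further.

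**Figure D3:**
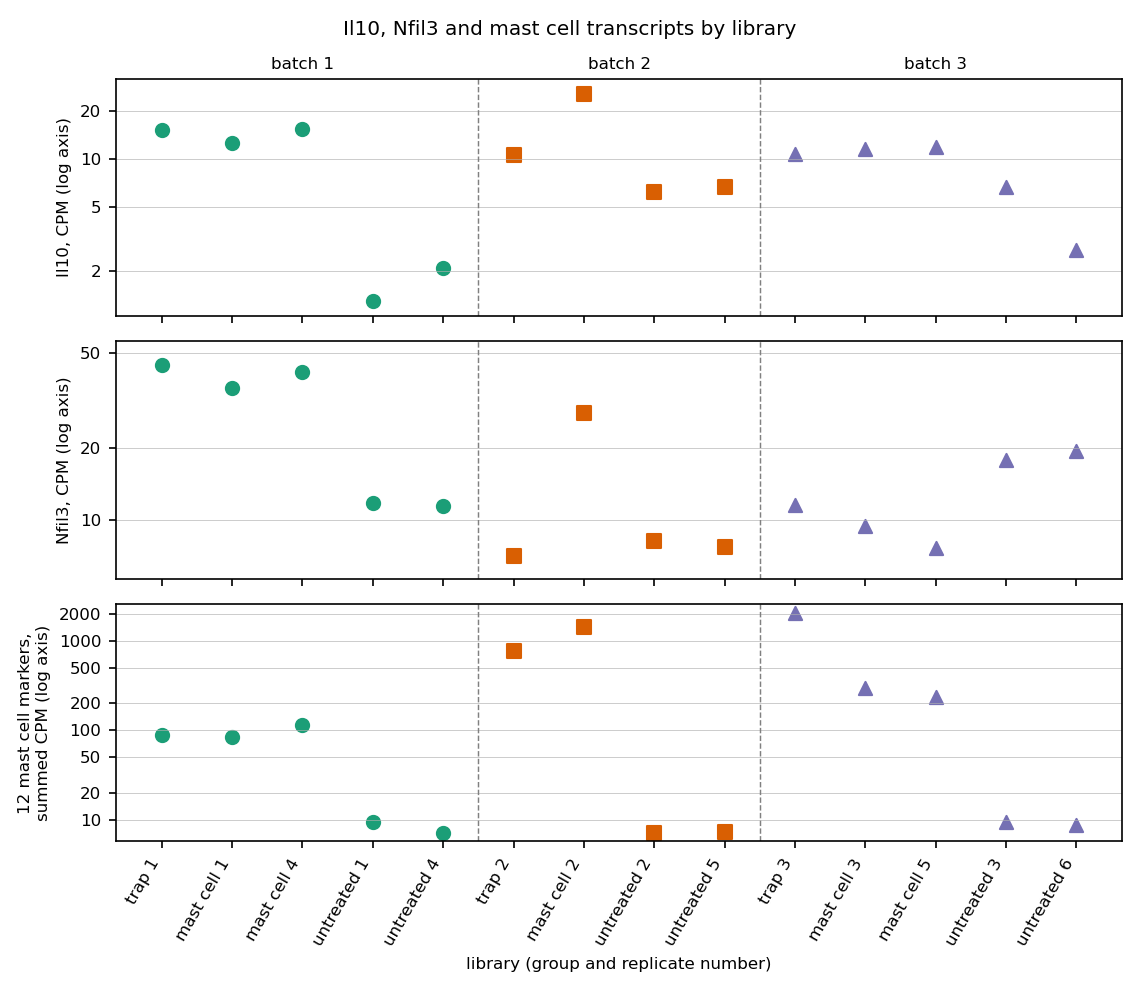
Level of Il10 (top), Nfil3 (middle) and 12 summed mast cell markers (bottom) in CPM on log axes, 1 point per library, ordered by batch and, within a batch, trap, mast cell supernatant and untreated. Batch 1 supernatant libraries reached 12.6 to 15.4 CPM of Il10 at 84.8 to 113 CPM of mast cell markers.

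The receptor genes did not pass the threshold in any of the 3 comparisons between groups. Il10ra (ENSMUSG00000032089, chr9:45253837-45269149, minus strand), the chain that binds the ligand, had 242, 128 and 184 CPM in trap libraries of batches 1, 2 and 3. Mast cell supernatant libraries had 235 and 216 CPM in batch 1, 129 CPM in batch 2, and 172 and 181 CPM in batch 3. Untreated libraries had 158 and 159.6 CPM in batch 1, 123 and 120.2 CPM in batch 2, and 160.1 and 223 CPM in batch 3. In batch 1 all 3 supernatant libraries lay above both untreated ones, while in batch 3 the 3 supernatant libraries lay between the 2 untreated ones. The log2 fold change was 0.20 ± 0.13 for trap supernatant (SE, adjusted p = 0.562) and 0.16 ± 0.11 for mast cell supernatant (SE, adjusted p = 0.49), both against untreated cells. The gene overlaps Gm20612, on the opposite strand with 0 counts, and Mir7086, with 16 counts, without sharing exonic bases with either.

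Il10rb (ENSMUSG00000022969, chr16:91406164-91425834, plus strand), is the shared signalling chain, and its groups lay close together. Trap libraries of batches 1, 2 and 3 had 162, 140.3 and 185 CPM. With mast cell supernatant there were 163 and 168 CPM in batch 1, 135 CPM in batch 2, and 191 and 183 CPM in batch 3. Untreated libraries had a lowest value of 159, a median of 164 and a highest of 196 CPM. The ranges of all 3 groups overlapped. The log2 fold change was -0.10 for trap supernatant, with an interval of -0.21 to 0.01 (adjusted p = 0.466), and -0.08 for mast cell supernatant, with an interval of -0.18 to 0.01 (adjusted p = 0.338). The gene shares 569 bases of exon on the same strand with the annotated gene Gm21970, to which 0 counts were assigned.

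Sbno2 was the member that fell, with both supernatants and with within-batch log2 differences of -0.44 to -0.23. The gene (ENSMUSG00000035673) lies at chr10:80056992-80105571 on the minus strand. Trap libraries of batches 1, 2 and 3 had 119.8, 145 and 155 CPM. Mast cell supernatant libraries had 117 and 108 CPM in batch 1, 126 CPM in batch 2, and 136 and 144 CPM in batch 3. Untreated libraries had 143 and 139.9 CPM in batch 1, 165 and 175 CPM in batch 2, and 184 and 191 CPM in batch 3. Every supernatant library lay below both untreated libraries of its own batch, although the groups overlapped across batches since untreated levels were lowest in batch 1 and highest in batch 3.

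For mast cell supernatant the log2 fold change of Sbno2 was -0.39 ± 0.04 (SE), a ratio of 0.763, with an interval of -0.48 to -0.30 and an adjusted p of 5.79e-05. For trap supernatant it was -0.25 ± 0.05 (SE), a ratio of 0.841, with an interval of -0.35 to -0.14 and an adjusted p of 0.016. Within batches 1, 2 and 3 the log2 differences were -0.24, -0.23 and -0.28 for trap and -0.34, -0.44 and -0.42 for mast cell supernatant. The mast cell supernatant call was lost without the batch term (-0.40, adjusted p = 0.153) and held without batch 3 (-0.37, adjusted p = 0.00102). The trap call was lost without that term, without batch 1, 2 or 3 (adjusted p = 0.149, 0.124 and 0.0721), without trap replicate 1 or 3 (0.105 and 0.119), and with the replicate block (-0.23, adjusted p = 0.279), while its log2 change stayed between -0.26 and -0.23.

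With mast cell supernatant, then, 2 of the 6 genes passed the threshold, Il10 higher and Sbno2 lower, where 4.79% of the 13061 tested genes were called. Higher calls took 2.17% and lower calls 2.62% of the tested genes. With trap supernatant 1 of the 6 passed, Sbno2, where 1.72% of genes were called, 0.919% higher and 0.796% lower. All 8 supernatant libraries lay above both untreated libraries of their batch for 2.39% of tested genes, Il10 among them. All 8 lay below for 2.73%, Sbno2 among them. The median log2 fold change over all tested genes was -0.01 in each comparison with untreated cells.

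Nfil3, the repressor of Il12b, lay on opposite sides of its untreated level in different batches. The gene (ENSMUSG00000056749) lies at chr13:52967209-52981073 on the minus strand. Trap libraries had 44.9 CPM in batch 1, 7.10 CPM in batch 2 and 11.6 CPM in batch 3. Mast cell supernatant libraries had 35.7 and 41.8 CPM in batch 1, 28.2 CPM in batch 2, and 9.43 and 7.62 CPM in batch 3. Untreated libraries had 11.8 and 11.4 CPM in batch 1, 8.17 and 7.76 CPM in batch 2, and 17.9 and 19.5 CPM in batch 3. The supernatant libraries lay above both untreated ones in batch 1 and below both in batch 3. In batch 2 the mast cell supernatant library lay above them and the trap library below.

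The within-batch log2 differences of Nfil3 from untreated were 1.95, -0.16 and -0.68 for the trap libraries of batches 1, 2 and 3. For mast cell supernatant they were 1.73, 1.82 and -1.13. Pooled over batches, the log2 fold change was 0.44 ± 0.62 for trap supernatant (SE, adjusted p = 0.845) and 0.74 ± 0.54 for mast cell supernatant (SE, adjusted p = 0.497). The intervals ran from -0.95 to 1.83 and from -0.46 to 1.95, so neither direction was detectable over the 3 batches together. Without batch 3 the changes were 1.21 for trap (adjusted p = 0.389) and 1.75 for mast cell supernatant (adjusted p = 0.0867). The mast cell supernatant value was 0.23 without its replicate 2, 0.24 without batch 1 and 0.32 without batch 2, and the trap value was -0.29 without trap replicate 1. The test of a batch-dependent response gave an unadjusted p of 0.00866 and an adjusted p of 0.0994. It passed with DESeq2, with an adjusted p of 0.0033, with no filter on low counts (3.2e-48), without batch 2 (3.82e-07), without trap replicate 2 (1.64e-08) and without mast cell supernatant replicate 2 (8.74e-08). Without batch 3 its adjusted p was 0.803. As for Il10, the fit with no filter used the same 14 libraries, so its much smaller p reflects a setting and not added data.

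Etv3, the ETS-family repressor, had the clearest batch-dependent response. The gene (ENSMUSG00000003382) lies at chr3:87525407-87540156 on the plus strand. Trap libraries had 449 CPM in batch 1, 281 CPM in batch 2 and 386 CPM in batch 3. Libraries with mast cell supernatant had 455 and 494 CPM in batch 1, 289.7 CPM in batch 2, and 307 and 332 CPM in batch 3. Untreated libraries had 322 and 317 CPM in batch 1, 315 and 302 CPM in batch 2, and 389 and 394 CPM in batch 3. Supernatant libraries were above both untreated ones in batch 1 and below both in batches 2 and 3.

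For Etv3 the within-batch log2 differences were 0.49, -0.13 and -0.02 for trap and 0.57, -0.09 and -0.30 for mast cell supernatant. Its response differed between batches with an adjusted p of 0.0013. Pooled, its log2 fold change was 0.10 ± 0.14 for trap (SE, adjusted p = 0.846) and 0.07 ± 0.13 for mast cell supernatant (SE, adjusted p = 0.817). Il10ra also passed the test of a batch-dependent response, with an adjusted p of 0.031, with differences of 0.60, 0.08 and -0.04 for trap and 0.50, 0.09 and -0.10 for mast cell supernatant. Thus 2 of the 6 genes passed, where 5.9% of tested genes did.

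Il10rb and Sbno2 gave adjusted p values of 0.313 and 0.902 in the same test. The Etv3 call held in all 14 leave-one-out fits and was lost without batch 1, with an adjusted p of 0.956. The Il10ra call was lost in 9 of the 14 leave-one-out fits, with adjusted p values up to 0.163, those without untreated replicate 1, 2, 4 or 5, trap replicate 1, or mast cell supernatant replicate 1, 3, 4 or 5. Without batch 1 its adjusted p was 0.91. Without batch 3 both calls held, with adjusted p values of 0.000448 for Etv3 and 0.00761 for Il10ra.

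Trap and mast cell supernatant did not differ detectably for any of the 6 genes. The log2 fold change of trap over mast cell supernatant was -0.35 ± 0.41 for Il10 (SE, interval -1.26 to 0.55). For Nfil3 it was -0.30 ± 0.62 (SE, interval -1.69 to 1.09). Narrower intervals were found for Il10ra, from -0.25 to 0.34, for Il10rb, from -0.13 to 0.10, and for Etv3, from -0.30 to 0.36. Sbno2 was 0.14 ± 0.05 higher with trap supernatant (SE, interval 0.03 to 0.25), with an unadjusted p of 0.0141 and an adjusted p that rounds to 1, as it does for all 6 genes.

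In that comparison edgeR called 0 of 13061 genes, 0% of those tested, with 569 at an unadjusted p under 0.05, while DESeq2 called 11 and limma-voom 0. None of the 6 genes passed with any of these tools. The Il10 and Nfil3 values were decided by batch 2. There the log2 differences of trap from mast cell supernatant were -1.26 for Il10 and -1.98 for Nfil3, and without that batch the fitted changes were 0.01 and 0.28.

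Untreated macrophages of the 3 batches already differed in these genes. All 6 passed a test of batch within the 6 untreated libraries, with adjusted p values from 0.00018 for Nfil3 to 0.0219 for Il10. Of the 11689 genes tested there, 35.8% passed. Il10ra was lowest in batch 2, Etv3, Nfil3, Il10rb and Sbno2 were highest in batch 3, and Il10 was lowest in batch 1. Only 2 libraries stood behind each batch level, and without untreated replicate 2, 4 or 5, or without batch 2, the count was 3 of 6. Without batch 3 it was 4 of 6, with Il10rb and Etv3 not past the threshold (adjusted p = 0.58 and 0.376).

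Per length of exonic sequence, the receptor chains led the order of levels in untreated cells. Il10rb had 45.6 ± 4.45 and Il10ra 45.0 ± 10.7 CPM per kb (SD, n = 6), at the 92.2 and 92.1 percentiles of 13030 genes. Etv3 followed with 33.1 ± 3.98, Sbno2 with 15.5 ± 1.98, Nfil3 with 6.30 ± 2.43 and Il10 with 3.27 ± 1.91 CPM per kb. Il10 thus stood at the 39.6 percentile. The ranges over libraries overlapped between Il10rb and Il10ra, between Il10ra and Etv3, and between Nfil3 and Il10, and did not overlap between Etv3 and Sbno2 or between Sbno2 and Nfil3. On this scale Il10 averaged 9.24 ± 1.96 CPM per kb with trap (SD, n = 3) and 11.7 ± 4.40 CPM per kb with mast cell supernatant (SD, n = 5).

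Below the receptor, 1 of 8 genes of the JAK-STAT relay and its feedback passed with mast cell supernatant, where 4.79% of all tested genes were called. Ptpn1, a phosphatase that acts on JAK kinases, fell with mast cell supernatant, with a log2 fold change of -0.31 ± 0.05 (SE, adjusted p = 0.00157), and had -0.23 with trap supernatant (adjusted p = 0.0542). Without batch 3 it was -0.26 with mast cell supernatant (adjusted p = 0.0196). With trap supernatant 0 of 8 passed by edgeR, with 1 at an unadjusted p under 0.05, 1 called by DESeq2 and 0 by limma-voom. Over all 13061 tested genes edgeR called 1.72% with trap, DESeq2 239 higher and 170 lower, and limma-voom 101 higher and 94 lower. The receptor kinase gene Tyk2 had log2 fold changes of -0.07 for trap (adjusted p = 0.686) and -0.12 for mast cell supernatant (adjusted p = 0.179). The list's median log2 fold change was 0.06 for trap and -0.07 for mast cell supernatant, beside -0.01 over all genes in each.

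Of the genes that IL-10 is known to induce in macrophages, other than the 6 described, 14 were tested. Tnfrsf1b, the second TNF receptor, fell with mast cell supernatant, with a log2 fold change of -0.67 ± 0.13 (SE, adjusted p = 0.0118), and had -0.52 with trap (adjusted p = 0.125). Without batch 3 the mast cell supernatant value was -0.46 (adjusted p = 0.0244). Bcl3, an NF-kB family regulator, had -0.38 with trap (adjusted p = 0.28) and -0.35 with mast cell supernatant (adjusted p = 0.147). Msr1, a scavenger receptor, had 0.29 with trap (adjusted p = 0.104) and 0.25 with mast cell supernatant (adjusted p = 0.068). The medians of the list were 0.03 for trap and -0.01 for mast cell supernatant.

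**Figure D4:**
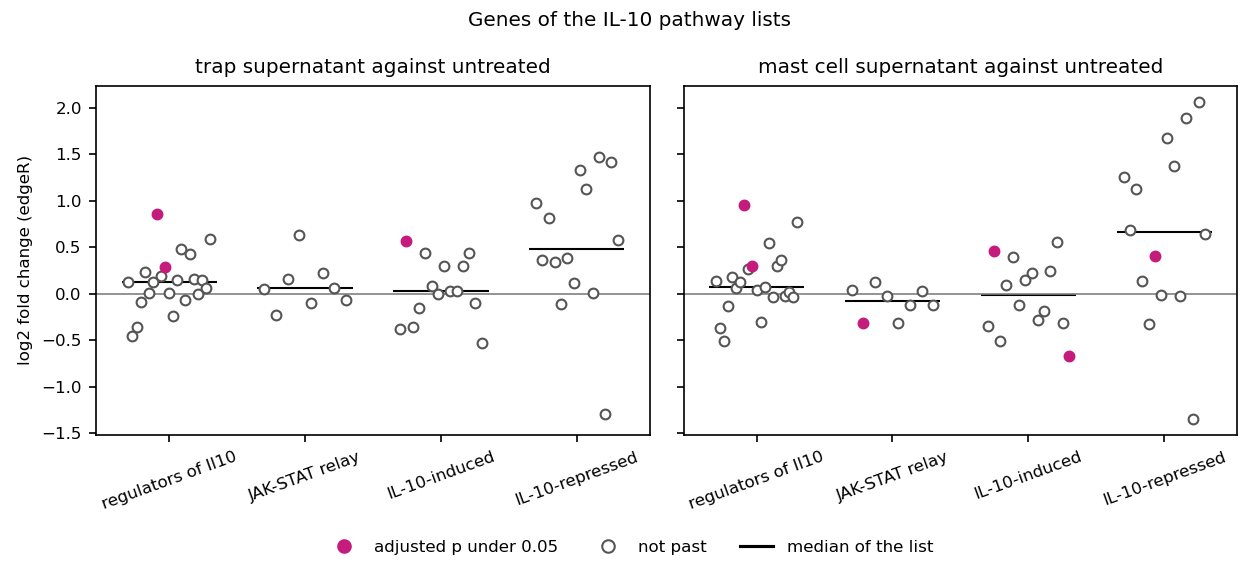
Log2 fold change against untreated cells of every tested gene in the lists around IL-10, with trap supernatant at left and mast cell supernatant at right. Each point is 1 gene, filled points have an adjusted p under 0.05, and lines are list medians, the highest of which were those of the IL-10-repressed list, at 0.48 for trap and 0.66 for mast cell supernatant.

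Of 21 known regulators of Il10 transcription or mRNA decay, Maf and Mapk14 rose with both supernatants by edgeR, 2 of 21 where 0.919% of all tested genes were called higher with trap and 2.17% with mast cell supernatant, and none fell. DESeq2 called 2 of the list higher with each supernatant, and limma-voom called 1 with trap and 2 with mast cell supernatant. Over all 13061 tested genes DESeq2 called 239 higher with trap and 433 with mast cell supernatant, and limma-voom 101 and 281. Maf, a transcription factor that activates Il10, averaged 103 CPM with trap, 119 CPM with mast cell supernatant and 53.8 CPM untreated. Its log2 fold change was 0.86 ± 0.18 for trap (SE, adjusted p = 0.0478) and 0.95 ± 0.16 for mast cell supernatant (SE, adjusted p = 0.00782). For mast cell supernatant the Maf difference was 0.36, 1.14 and 1.37 in batches 1, 2 and 3, and for trap 0.49, 0.97 and 1.17. It was smallest in batch 1, where the Il10 difference was largest and untreated Il10 was lowest. Whether Maf acted on Il10 was not tested. Without batch 3 the Maf calls were lost, at 0.72 for trap (adjusted p = 0.21) and 0.70 for mast cell supernatant (adjusted p = 0.0899). Mapk14, which encodes p38 alpha kinase, changed by 0.29 ± 0.07 with trap (SE, adjusted p = 0.0357) and by 0.30 ± 0.06 with mast cell supernatant (SE, adjusted p = 0.00608), and without batch 3 both Mapk14 calls held (adjusted p = 0.048 and 0.00833). The list medians were 0.12 and 0.08.

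Of 19 genes that IL-10 is known to hold down in macrophages, 14 were tested, and none fell by edgeR with either supernatant. With mast cell supernatant edgeR called 1 higher, DESeq2 2 higher and 1 lower, and limma-voom 3 higher. Over all 13061 tested genes edgeR called 2.17% higher, DESeq2 433 higher and 451 lower, and limma-voom 281 higher. Cd80, a costimulatory ligand, rose with mast cell supernatant, with a log2 fold change of 0.40 ± 0.09 (SE, adjusted p = 0.012), and had 0.38 with trap (adjusted p = 0.0674). Without batch 3 it passed with both, at 0.50 for trap (adjusted p = 0.0162) and 0.53 for mast cell supernatant (adjusted p = 0.0023). With trap 0 of 14 passed by edgeR, with 1 at an unadjusted p under 0.05, 1 called higher by DESeq2 and 0 by limma-voom. Over all tested genes edgeR called 1.72% with trap, and 1666 had an unadjusted p under 0.05. DESeq2 called 239 higher, and limma-voom 101 higher and 94 lower. Il1b, the inflammatory cytokine, had log2 fold changes of 1.47 for trap (adjusted p = 0.40) and 1.89 for mast cell supernatant (adjusted p = 0.118). Without batch 3 Il1b passed with mast cell supernatant, at 3.06 (adjusted p = 0.0097), and had 2.31 with trap (adjusted p = 0.0774). Ptgs2, the inducible cyclooxygenase gene, likewise had 3.23 (adjusted p = 0.0251) and 2.06 (adjusted p = 0.197). Further genes of the list passed higher with mast cell supernatant in that fit, and none passed lower. Of all 13059 genes tested in that fit for mast cell supernatant, 907 passed in either direction. With all batches Nos2, the inducible nitric oxide synthase, had -1.30 with trap (adjusted p = 0.476) and -1.34 with mast cell supernatant (adjusted p = 0.242). Without batch 3 Nos2 had -0.38 with trap (adjusted p = 0.871) and -0.39 with mast cell supernatant (adjusted p = 0.78). The list median changed sign between batches, with 2.33, 0.38 and -0.18 for trap and 2.49, 1.11 and -0.83 for mast cell supernatant in batches 1, 2 and 3. Mast cell marker sums differed between the same groups, and their part in the list values was not tested.

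Il6, Il1a, Il12a, Il12b and Il23a, cytokine genes of that list, were not tested, with 23, 77, 1, 16 and 19 counts over all 14 libraries. Apart from Il20rb, the other IL-10 family genes were close to silent. Of 11 listed ligands and receptor chains, 1 was tested, the receptor chain Il20rb. It averaged 4.06 CPM with trap, 4.98 CPM with mast cell supernatant and 4.86 CPM untreated. The log2 fold changes were -0.35 for trap (adjusted p = 0.655) and -0.11 for mast cell supernatant (adjusted p = 0.847). The ligands Il20, Il22, Il24, Ifnl2 and Ifnl3 and the receptor chain Il22ra1 had 0 counts over all 14 libraries, which allows up to 0.0141 CPM over them together. Il19 had 15 counts, Il20ra 1, Il22ra2 2 and Ifnlr1 47. No gene of these 5 lists passed between trap and mast cell supernatant with edgeR, DESeq2 or limma-voom, with 2 at an unadjusted p under 0.05, both in the induced list.

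The 5 genes whose differences from untreated were nearest to those of Il10 were sought among 9769 genes over the 8 supernatant libraries, by root mean square distance on the log2 scale. They were Tnfsf9, a costimulatory TNF family ligand (0.886), Il1b (1.07), Zfp36l1, an mRNA decay factor (1.09), Ptgs2, the inducible cyclooxygenase (1.17), and Dusp10, a MAP kinase phosphatase (1.17), against a median distance of 2.20 over all genes compared. In batch 3 the mast cell supernatant libraries differed from untreated by 1.42 and 1.47 for Il10, by -0.55 and -0.37 for Il1b, and by -0.59 and -0.61 for Ptgs2. In those libraries Il10 was above untreated, and Il1b and Ptgs2 were below it, while the trap library of batch 3 was above untreated for all 3 genes. Tnfsf9, Zfp36l1 and Dusp10 rose with mast cell supernatant, with log2 fold changes of 1.27, 1.14 and 1.02 (adjusted p = 0.0391, 0.0374 and 0.0257), and Zfp36l1 missed the threshold without batch 3 (adjusted p = 0.0557). With trap they had 1.02, 0.83 and 0.82 (adjusted p = 0.215, 0.265 and 0.191). These genes were picked for their likeness in these libraries, so their nearness is a description.

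**Figure D5:**
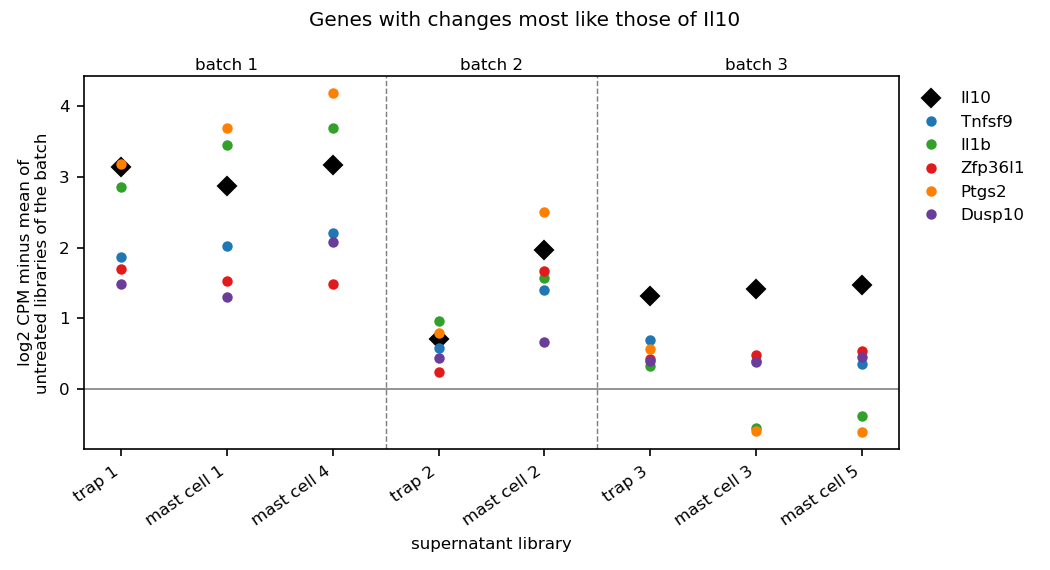
Log2 difference from the untreated libraries of the same batch in each of the 8 supernatant libraries, for Il10 and the 5 genes nearest to it, with Il10 as diamonds. Il10 lay at 1.42 and 1.47 in the mast cell supernatant libraries of batch 3, where Il1b and Ptgs2 lay below 0.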

How the data were processed

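The values used were whole-number counts per gene that the authors deposited for 14 libraries. Per the submitters' processing notes, featureCounts 2.0.0 and the build GRCm38 were used; the sources used here give neither the aligner nor the annotation nor whether counting used strand, and the kit was a stranded mRNA preparation per the labels' protocols. Gene names came from GENCODE 21 for 47310 of 47937 identifiers. Groups and batches came from the labels.

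Tests used edgeR 4.0.16 (R 4.3.3) with TMM scaling, its expression filter, a robust quasi-likelihood fit of group plus batch over all 14 libraries, and Benjamini-Hochberg adjustment over all genes tested at a threshold of 0.05. A batch by treatment fit tested whether responses differed between batches, and a fit of the 6 untreated libraries tested batch. Log2 CPM used a prior count of 1. Log2 differences within batches were set against the mean of that batch's untreated libraries. Levels per kb used exonic length. Intervals are 95% confidence intervals.

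Alternatives were other scaling, no filter, DESeq2 1.42.0, limma-voom (limma 3.58.1), no batch term, a replicate block over the 9 libraries numbered 1 to 3, the compared groups alone, and leaving out each batch and each library. Libraries 1 to 3 of each group lie in batches 1 to 3 per the labels. The 9 same-number pairs correlated at 0.298 to 0.71 in their deviations from group means, against -0.592 to 0.173 for the 18 other pairs. Same-number pairs are also same-batch pairs here, so the correlations cannot show a pairing of samples beyond batch. No library was a copy of another among 28 pairs compared. The statistical steps were tested on simulated data, in which effects of a group comparison were the same in every batch. The simulated test of a batch-dependent response had 7.92% false among its calls, above the 5% threshold. That test called 4.94% of genes changed 1.5-fold and 58.2% of genes changed 2-fold.

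The genes named were the 6 members in every comparison, up to 4 genes with the smallest p per list, the 5 genes nearest to Il10 among those averaging at least 5 CPM, and the annotated genes within 100 kb of Il10. The members and lists were chosen with earlier results of these data known. The result of 1 listed gene is not reported here.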

Additional observations from a re-analysis of the deposited data

Results flagged for a closer look

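Il10 in mast cell supernatant replicate 2 had 25.3 CPM, the highest of its group of 5. The gap to the next library, at 15.4 CPM, was 0.715 of the group's range, above the critical value of 0.71. This library is the only one of its group in batch 2. Such a gap was looked for in 12 pairs of gene and group, and chance marks about 1 in 20.

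The difference of supernatant libraries from untreated ones varied between batches for Etv3, with an adjusted p of 0.0013 by edgeR. The same test gave an adjusted p of 0.031 for Il10ra. Both genes were above untreated in batch 1 with either supernatant. In batch 3 the mast cell supernatant libraries lay below both untreated ones for Etv3, with a log2 difference of -0.30. For Il10ra they lay between the 2 untreated libraries of that batch, with a log2 difference of -0.10 from the untreated mean.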

How the results depend on the processing

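The number of the 6 genes past the threshold with mast cell supernatant was 2, and became 0 with no batch term, 1 with the replicate block over the 9 libraries numbered 1 to 3, and 1 without batch 2. It was 2 in every leave-one-out fit. With trap supernatant it was 1, and became 2 with DESeq2, 0 with no batch term, 0 with the replicate block, 0 without batch 1, 2 or 3, and 0 to 2 over leave-one-out fits. Between trap and mast cell supernatant it was 0 in all fits. For the batch-dependent response it was 2, and became 4 with no filter on low counts, 0 without batch 1, 4 without batch 2, and 1 to 4 over leave-one-out fits. For batch in untreated cells it was 6, and became 3 without batch 2 and 3 to 6 over leave-one-out fits. The replicate block changed no other call of the 6 genes. The causes were not tested.

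Counts over all genes moved too. The 625 calls for mast cell supernatant became 62 with no batch term, 84 with the replicate block and 231 without batch 2. The 224 for trap became 409 with DESeq2, 15 with no batch term, 36 with the block, 116 without batch 1, 88 without batch 2 and 97 to 280 over leave-one-out fits. The 0 between the supernatants became 11 with DESeq2, 22 with those groups alone, 1 without batch 3 and up to 3 over leave-one-out fits. The 771 batch-dependent calls became 1571 unfiltered, 0, 1256 and 428 without batches 1, 2 and 3, and 238 to 1283 over leave-one-out fits. The 4189 among untreated libraries became 2774 without batch 1, 638 without batch 2 and 1987 to 6912 over leave-one-out fits.

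Only uncalled log2 changes turned direction. Without batch 1 these were Nfil3 (-0.52) and Etv3 (-0.0668) with trap, and Il10ra (-0.0195) and Etv3 (-0.20) with mast cell supernatant. Between trap and mast cell supernatant they were Il10ra (-0.0166) and Etv3 (-0.0145) with no batch term, Il10 (0.0141) and Nfil3 (0.28) without batch 2, and Etv3 (-0.11) without batch 3. Leave-one-out ranges crossing 0 were -0.29 to 0.82 for Nfil3 with trap and -0.012 to 0.14 for Etv3 with mast cell supernatant. Between trap and mast cell supernatant they were -0.88 to 0.0301 for Il10, -0.0876 to 0.11 for Il10ra, -0.0541 to 0.00652 for Il10rb, -1.12 to 0.15 for Nfil3 and -0.0439 to 0.11 for Etv3.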

Other observations

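The genes annotated within 100 kb of Il10 on GRCm38 were read beside it. Mapkapk2, which encodes a kinase activated by p38 and lies 28.7 kb away, averaged 597 CPM with trap, 622 CPM with mast cell supernatant and 569 CPM untreated. Pooled over batches, its log2 fold changes were 0.01 for trap (adjusted p = 0.992) and 0.04 for mast cell supernatant (adjusted p = 0.941). These pooled opposite directions. In batches 1, 2 and 3 the log2 differences were 0.52, 0.01 and -0.44 for trap. For mast cell supernatant they were 0.60, 0.23 and -0.63. Without batch 3 Mapkapk2 had 0.45 with mast cell supernatant (adjusted p = 0.0418) and 0.28 with trap (adjusted p = 0.35). Gm37084 is an unclassified annotation 61.3 kb from Il10 that lies within Mapkapk2, on the same strand. It had 83 counts over all libraries, with 27, 1 and 1 in the trap libraries of batches 1, 2 and 3. In mast cell supernatant libraries it had 26 and 12 counts in batch 1, 2 in batch 2, and 1 and 0 in batch 3, and in untreated libraries it had 1 to 4. Its high values were thus in the batch 1 supernatant libraries, where Il10 differed most from untreated and Mapkapk2 was also above untreated. Whether the Gm37084 counts came from Mapkapk2 transcripts was not tested. The log2 fold changes of Gm37084, 2.27 ± 0.84 for trap and 2.05 ± 0.77 for mast cell supernatant (SE), did not pass, with adjusted p values of 0.239 and 0.149. Il19, the IL-10 family gene 79.7 kb away, had 15 counts, and Gm25549 and Gm25717, at 48.7 kb and 77.4 kb, had 8 and 1.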
